A study of Bos taurus with 147 samples.

Results

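Longissimus dorsi muscle of crossbred cattle was compared over 3 time points, T1, T2 and T3, on 8 two-colour cDNA microarrays, chosen from 147 hybridisations of beef cattle muscle and fat as the arrays whose channels both held RNA of the same cross at 2 different times. In Wagyu x Hereford animals 2 arrays compared T2 with T1 and 2 compared T3 with T2. In Piedmontese x Hereford animals there were likewise 2 arrays for T2 over T1 and 2 for T3 over T2. No array set T3 directly against T1, and a hybridisation of Piedmontese x Hereford T1 RNA against itself was left out of every fit. A further 12 arrays, 4 at each time, compared the crosses with each other and served to connect the groups.

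The labels give the cross, the muscle and the time number. They do not give the ages at T1 to T3, the sex, the feeding, the number of animals or whether RNA was pooled, and no treatment is named. The order in time was taken from the numbers. Since nothing states that replicate arrays held separate animals, p-values measure the spread between arrays, which may be technical. The array carried clones of longissimus muscle and subcutaneous fat libraries of an Angus steer, each printed in duplicate, and elements of one gene are copies of the same or similar clones rather than replicates. Each array gave only a ratio between its channels. Whether defining muscle markers were abundant in these samples could therefore not be checked.

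As background, skeletal muscle is made of contractile fibres held in a matrix of collagens and other secreted proteins, with fat cells lying between the fibre bundles. Slow fibres rely on mitochondrial respiration and carry myoglobin and slow troponins, while fast fibres rely more on glycolysis. Wagyu cattle are known for fat deposited within the muscle and Piedmontese cattle for heavy muscling caused by an inactive form of myostatin, a secreted inhibitor of muscle growth. The myostatin genotype of these animals is not given by the labels, and myostatin itself was not measured under a gene name here. In RNA of whole muscle, fewer cells of a type and less RNA per cell cannot be told apart.

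Values are log2 ratios of the later over the earlier time, centred on the median of each array, so that 1 means 2-fold higher at the later time. A change is called differentially expressed (DE) when the adjusted p of limma, fitted over 20 arrays and adjusted by the Benjamini-Hochberg method over 17253 features, was under 0.05, and ± gives the standard error of the fit. Of these features 973 were named genes and 16280 were array elements without a gene name. The 8 arrays held 20850 to 20942 usable elements. Across named genes the 2 replicate arrays of a step correlated at 0.27 and 0.35 in Wagyu x Hereford and at 0.57 and 0.58 in Piedmontese x Hereford animals. No source states how the deposited ratio was formed. Cy5 over Cy3 is the likely direction, given the dye named for each channel. If the ratio ran the other way, every sign below, and with it each count of higher and lower features, would turn. Later RNA was labelled with Cy5 in Wagyu x Hereford arrays and with Cy3 in Piedmontese x Hereford arrays. A dye effect therefore cancels in the mean of both crosses, whereas changes within one cross, and differences between the crosses, lean on the dye term of the fit. The T2 samples enter both steps, with opposite sign, so that a rise to T2 followed by a fall to T3 is measured against shared material.

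From T1 to T2, 1183 features were DE in the mean of both crosses (6.86% of those tested), 482 higher and 701 lower. Among named genes 78 were DE (8.02%), 41 higher (4.21%) and 37 lower (3.8%), and 68 of the 78 had one sign on all 4 arrays of the step, a pattern that 28.3% of all named genes showed. From T2 to T3 the count was 1847 features (10.7%), 1161 higher and 686 lower, with 122 named genes (12.5%), 53 higher (5.45%) and 69 lower (7.09%). Of the 122, 104 had one sign on all 4 arrays, against 32% of all named genes. The calls rest in part on these same arrays, so that a higher share of one sign among called genes follows from the call. From T1 to T3, the sum of both steps, 131 features were DE (0.759%) and 17 named genes (1.75%), 4 higher (0.411%) and 13 lower (1.34%). The count from T1 to T2 was 72 without the first Wagyu x Hereford array, and 574 and 413 without the first and the second Piedmontese x Hereford array. That from T2 to T3 was 476 without the second Wagyu x Hereford array, and 576 and 578 without the first and the second Piedmontese x Hereford array. The count from T1 to T3 was between 56 and 77 without any 1 of 6 time arrays, namely both T2 over T1 arrays of each cross and both T3 over T2 arrays of Piedmontese x Hereford animals.

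Among the 10 largest called rises from T1 to T2 shared by the crosses were ALDH2, ATF4, MB and CYC1. Myoglobin (MB), which stores oxygen in slow fibres, had log2 ratios of 0.91 and 0.40 on Wagyu x Hereford arrays and 1.13 and 0.52 on Piedmontese x Hereford arrays for T2 over T1. For T3 over T2 it had -0.45 and -0.62 on Wagyu x Hereford arrays and -0.81 and -0.53 on Piedmontese x Hereford arrays. All 4 arrays of each step thus ran one way, which for T2 over T1 the choice of MB and CYC1 required. The fitted change of MB was 0.74 ± 0.10 for T2 over T1 (1.67-fold, limma adjusted p = 0.0028) and -0.60 ± 0.10 for T3 over T2 (adjusted p = 0.0025). Of 50 MB elements, all were above 0 for T2 over T1 and none for T3 over T2. Cytochrome c1 (CYC1), a subunit of complex III, had 0.69 and 0.61 on Wagyu x Hereford arrays and 0.54 and 1.03 on Piedmontese x Hereford arrays for T2 over T1, and all 4 arrays of T3 over T2 were below 0, the highest at -0.38. Its fitted changes were 0.72 ± 0.13 and -0.68 ± 0.13 (limma adjusted p = 0.0054 and 0.0036). Without the first Wagyu x Hereford T2 over T1 array the adjusted p of CYC1 for that step was 0.059.

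Mitochondrial aldehyde dehydrogenase (ALDH2), which clears aldehydes, had the largest called rise of one sign from T1 to T2. Its ratios were 1.51 and 0.82 on Wagyu x Hereford arrays and 0.98 and 1.36 on Piedmontese x Hereford arrays. The fitted change was 1.17 ± 0.16 (2.25-fold, limma adjusted p = 0.0028), and that from T2 to T3 was -0.29 (adjusted p = 0.25). Activating transcription factor 4 (ATF4), a regulator of the response to amino acid shortage, rose by 1.16 ± 0.25 from T1 to T2 (limma adjusted p = 0.013). Its 4 ratios were 2.04 and 1.30 in Wagyu x Hereford and 0.32 and 1.00 in Piedmontese x Hereford arrays, and the call was lost without the first Wagyu x Hereford or the second Piedmontese x Hereford array of that step. The muscle ubiquitin ligase subunit ASB12 rose by 0.78 and then fell by 0.61, the RNA-binding protein PCBP1 rose by 0.76 and fell by 0.62, and the kinase WNK1 rose by 0.84 and fell by 0.91, all DE in both steps. FEM1A, RNF7 and STAU2 rose by 0.76, 0.85 and 0.77 from T1 to T2. The calls of RNF7, of STAU2 and of WNK1 in each step were kept in 17 of the 20 fits without 1 array, each lost only without time arrays of its step, and those of ASB12, PCBP1 and FEM1A from T1 to T2 in all 20.

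A second set of genes was lowest at T2 in both crosses. The enhancer of polycomb homologue EPC1, part of a histone acetyltransferase complex, had ratios of -2.72 and -0.77 on Wagyu x Hereford arrays and -2.83 and -1.59 on Piedmontese x Hereford arrays for T2 over T1. For T3 over T2 it had 2.65 and 2.20 on Wagyu x Hereford arrays and 1.83 and 1.30 on Piedmontese x Hereford arrays. The fitted changes were -1.98 ± 0.37 and 1.99 ± 0.37 (limma adjusted p = 0.0066 and 0.0034), and T3 over T1 was 0.02. WNT10B, a secreted Wnt ligand that restrains fat cell formation in mice, changed by -1.92 and then 1.52. The transcription factor NFIX changed by -1.56 and then 1.90, and DGAT2, which catalyses the last step of triglyceride synthesis, by -1.54 and then 1.30. GOLPH3L (-1.46 and 1.73), the deubiquitinase USP16 (-1.27 and 1.28), the nuclear corepressor NCOR1 (-1.19 and 1.25), LENG8 (-1.42 and 1.03), the lysyl hydroxylase PLOD3 (-1.07 and 1.09) and the matrix metalloproteinase MMP14 (-0.68 and 1.01) did the same. Each of these 10 genes rests on 2 elements. Of them, only EPC1, WNT10B and LENG8 were called in each cross for T2 over T1, and only EPC1, NFIX, GOLPH3L, NCOR1 and MMP14 for T3 over T2. The T3 over T2 calls of DGAT2, USP16, LENG8 and PLOD3 in the mean of both crosses were kept in 17 of the 20 fits without 1 array. Each was lost only without time arrays of that step. The falls from T1 to T2 leaned on 1 array. Without the first Wagyu x Hereford T2 over T1 array, 0 named genes were called lower from T1 to T2 in the mean of both crosses. The falls of these 10 genes were then not called.

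These 10 genes are the 10 largest called rises from T2 to T3, so that their directions in that step follow from the choice. Their median was -1.89 and -0.65 on the 2 Wagyu x Hereford T2 over T1 arrays and -1.61 and -1.46 on the Piedmontese x Hereford ones. It was 0.38 and 1.74 on the Wagyu x Hereford T3 over T2 arrays and 1.73 and 1.40 on the Piedmontese x Hereford ones. They also moved together where no time differed. On the self-hybridisation of Piedmontese x Hereford T1 RNA, 8 of the 10 were above 0 (median 0.33, range -0.30 to 0.61). On the 4 arrays of Wagyu x Hereford over Piedmontese x Hereford at T3, their medians were -0.43, 0.00, 1.01 and 1.37, with all 10 above 0 on arrays 3 and 4. The part of such array-wide movement in their change over time was not tested.

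Among the 10 largest called falls from T2 to T3 shared by the crosses, 4 were of the extracellular matrix genes SPARC, COL1A1, FMOD and COL1A2, and the largest was that of the deubiquitinase USP2. The calcium-binding matrix protein osteonectin (SPARC, 50 elements) had ratios of -1.49 and -1.03 on Wagyu x Hereford arrays and -0.91 and -0.97 on Piedmontese x Hereford arrays. It fell by 1.10 ± 0.10 (limma adjusted p = 0.00011), and none of its 50 elements was above 0. Collagen type I alpha 1 (COL1A1, 68 elements) had -1.68 and -1.18 in Wagyu x Hereford and -0.60 and -0.84 in Piedmontese x Hereford arrays, a fall of 1.08 ± 0.14 (adjusted p = 0.00027). Collagen type I alpha 2 (COL1A2) had -1.12 and -1.23 in Wagyu x Hereford and -0.68 and -0.88 in Piedmontese x Hereford arrays, a fall of 0.98 ± 0.13 (adjusted p = 0.0004). Collagen type III alpha 1 (COL3A1, 64 elements tested) had -0.88 and -0.67 in Wagyu x Hereford and -0.84 and -1.07 in Piedmontese x Hereford arrays, a fall of 0.87 ± 0.12 (adjusted p = 0.00059). All 4 of these genes were below 0 on every array of the step, which the choice of genes required for SPARC, COL1A1 and COL1A2.

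Of 7 collagens measured, these 3 fell from T2 to T3 and none rose, beside 7.09% of all named genes lower, with a list median of -0.37 beside 0.02 for all features, and 3 were called without any 1 of the 20 arrays. Collagens IV, V, VI and XII (COL4A1, COL5A3, COL6A2 and COL12A1) had -0.09, 0.02, 0.04 and -0.37 and were not called. Of 23 other matrix genes 5 fell and 2 rose. The 5 were SPARC, the collagen-binding proteoglycan fibromodulin (FMOD, -1.06), fibronectin (FN1, -0.50), the secreted protease HTRA1 (-0.75) and the procollagen peptidase enhancer PCOLCE (-0.63), and the 2 were MMP14 and osteopontin (SPP1, 0.42). Decorin (DCN) and lumican (LUM), both small proteoglycans, had -0.11 and -0.29 and were not called. Beside these, 2 of 8 measured endothelium and mural cell markers fell in the same step, EGFL7 by 0.59 and calponin (CNN1) by 0.51, while none of 5 immune cell markers was called. The part of a changed share of vessel cells in the fall of matrix genes was not tested.

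Part of the genes of fast fibres and of glycolysis fell from T2 to T3. Of 9 fast fibre genes 5 fell and none rose, with a median of -0.40, where 7.09% of all named genes were called lower. They were alpha-actinin 3 (ACTN3, -0.51), fast myosin heavy chain (MYH1, -0.40), fast troponin I (TNNI2, -0.43), the fast calcium pump (ATP2A1, -0.41) and myozenin 1 (MYOZ1, -0.32). Of 8 slow fibre genes MYL2 and TNNC1 rose and MB fell, with a median of -0.01. Of 19 genes of glycolysis and glycogen 6 fell and none rose, with a median of -0.41. Muscle enolase (ENO3, 56 elements) had ratios of 0.09 and -0.85 on Wagyu x Hereford arrays and -1.16 and -1.03 on Piedmontese x Hereford arrays, and fell by 0.74 ± 0.16 (limma adjusted p = 0.0096). Muscle phosphoglycerate mutase (PGAM2) had 0.13 and -0.64 on Wagyu x Hereford arrays and -1.07 and -0.90 on Piedmontese x Hereford arrays, and fell by 0.62 ± 0.13 (adjusted p = 0.0055). The other 4 were phosphoglucomutase (PGM1, -0.47), glucose phosphate isomerase (GPI, -0.48), triosephosphate isomerase (TPI1, -0.46) and alpha-enolase (ENO1, -0.41).

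The first Wagyu x Hereford array for T3 over T2 stood apart here, with a glycolysis median of -0.05 against -0.48 on the second, and -0.62 and -0.52 on the Piedmontese x Hereford arrays. Without the second Wagyu x Hereford array 0 of the fast fibre and 0 of the glycolysis genes were called, and without centring the arrays 1 and 3 were. The median of all named genes in this step was -0.07.

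A few respiratory chain and ribosomal genes rose from T2 to T3, where 5.45% of all named genes were called higher. Of 9 nuclear genes of complex I 3 rose and none fell (NDUFA6, NDUFB4 and NDUFB8, 0.56, 0.50 and 0.45), of 9 nuclear genes of cytochrome c oxidase 2 rose (COX6C, 0.58, and COX7C, 0.73) and of 10 of ATP synthase 2 rose (ATP5PF, 0.44, and ATP5E, 0.33). CYC1 of complex III fell in the same step. The complex I count was 0 without the first Piedmontese x Hereford array and the ATP synthase count 0 without the second Wagyu x Hereford array of the step. List medians were above 0 on both Wagyu x Hereford arrays for all 3 lists, but on the Piedmontese x Hereford arrays they were 0.05 and -0.08 for cytochrome c oxidase and -0.14 and 0.03 for ATP synthase. Of 49 ribosomal protein genes 4 rose (RPL21, 0.55, RPL27A, 0.37, RPL37A, 0.62, and RPS13, 0.41) and none fell, with 37 above 0 and a median of 0.18. The count of 4 lies near the share of all named genes, and it ran between 0 and 6 when single arrays were left out. From T1 to T2 RPL21, COX7C and NDUFB4 had fallen by 0.38, 0.64 and 0.41. The largest fall of a named gene in the T2 to T3 step was that of the deubiquitinase USP2, with -1.63 and -1.14 on Wagyu x Hereford arrays and -1.30 and -0.80 on Piedmontese x Hereford arrays, fitted at -1.22 ± 0.15 (limma adjusted p = 0.0002). DECR1, an enzyme of the oxidation of unsaturated fatty acids, fell by 1.00, and GHRHR, the receptor for growth hormone releasing hormone, by 0.87. The small heat shock protein HSPB7 fell by 0.88 and then rose by 0.91.

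**Figure D1:**
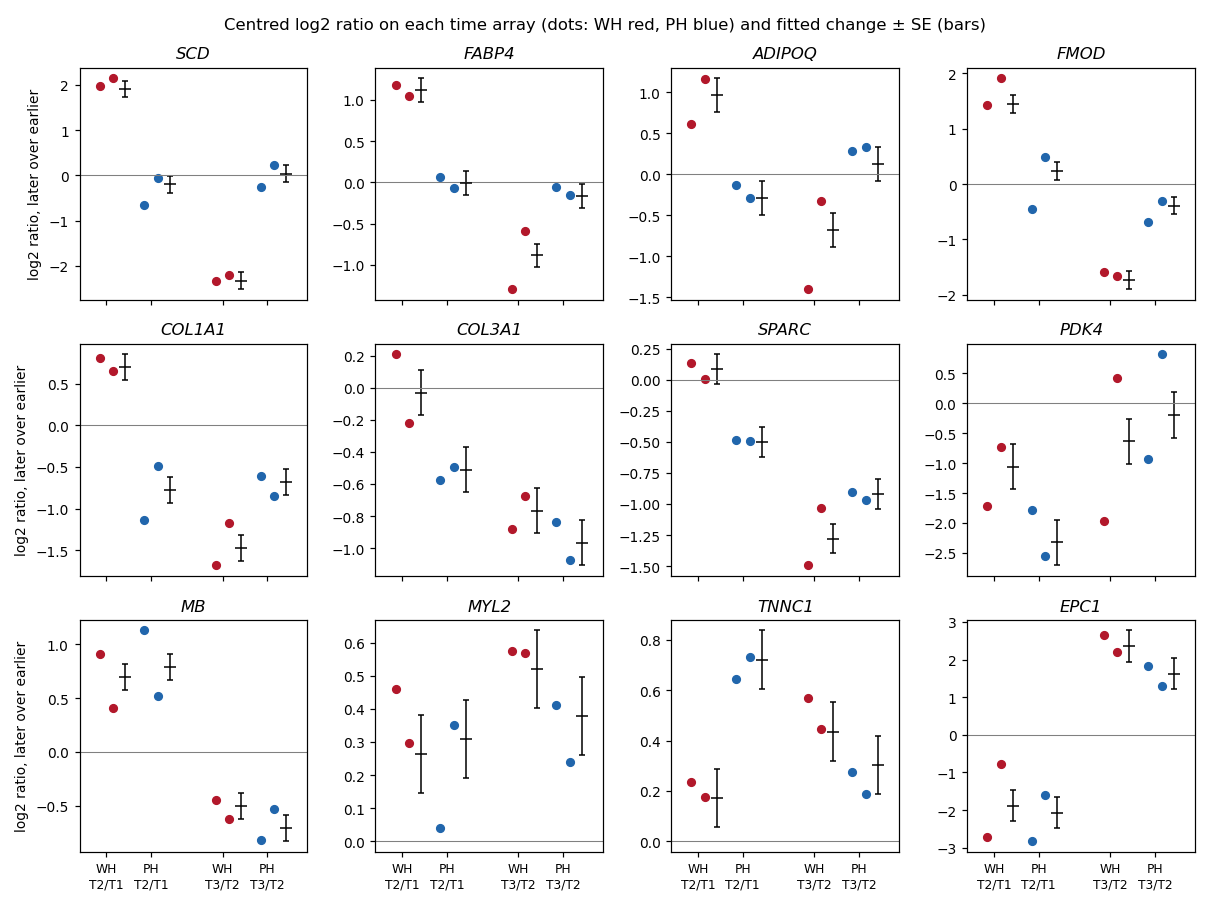
Log2 ratio of the later over the earlier time for 12 genes on each of the 8 time arrays (red dots Wagyu x Hereford, WH, blue dots Piedmontese x Hereford, PH), with the fitted change of each cross and its standard error (black bars). SCD, FABP4 and FMOD were above 1 on both WH arrays of T2 over T1 and below 0.5 on the PH arrays, whereas MB, MYL2, TNNC1 and EPC1 ran one way in both crosses.

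For T3 over T1, 3 of 7 collagens and 2 of 23 other matrix genes, SPARC and MGP, were lower and none higher, where 1.34% of all named genes were called lower. The medians of both lists were -0.20 and -0.22, and the counts ran from 2 to 3 and from 1 to 3 without 1 array. SPARC was lower by 1.31 ± 0.15 (0.404-fold, limma adjusted p = 0.0015), COL3A1 by 1.14 ± 0.17, COL1A1 by 1.12 ± 0.19 and COL1A2 by 1.05 ± 0.18 (adjusted p = 0.0055, 0.01 and 0.011). Matrix Gla protein (MGP), which keeps soft tissue from calcifying, was lower by 1.33 ± 0.24 (adjusted p = 0.011). Most of its change fell between T1 and T2, where the ratios were -0.92 and -0.08 on Wagyu x Hereford arrays and -1.49 and -1.64 on Piedmontese x Hereford arrays. With the 8 time arrays alone 0 features were called for T3 over T1. The calls of SPARC, MGP and the 3 collagens were thus lost there (limma adjusted p = 0.18 for SPARC and 0.30 for MGP).

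Slow troponin C (TNNC1, 26 elements) was above 0 on all 8 arrays. Its ratios for T2 over T1 were 0.23 and 0.18 in Wagyu x Hereford and 0.65 and 0.73 in Piedmontese x Hereford arrays, and for T3 over T2 they were 0.57 and 0.45 and then 0.27 and 0.19. The fitted change of T3 over T1 was 0.82 ± 0.14 (1.76-fold, limma adjusted p = 0.011). Slow regulatory myosin light chain (MYL2, 68 elements) had 0.46 and 0.30 in Wagyu x Hereford and 0.04 and 0.35 in Piedmontese x Hereford arrays for T2 over T1. For T3 over T2 it had 0.57 on both Wagyu x Hereford arrays and 0.41 and 0.24 on the Piedmontese x Hereford ones, and T3 over T1 came to 0.73 ± 0.14 (1.66-fold, adjusted p = 0.02). These 2 were the only ones of 8 slow fibre genes called for T3 over T1, with none lower and a list median of 0.26, while slow troponin T (TNNT1) had 0.32 and was not called. The call of MYL2 was lost in 7 of the 20 fits without 1 array, and those of TNNC1 and MYL2 were lost with the 8 time arrays alone.

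Pyruvate dehydrogenase kinase 4 (PDK4), which spares glucose when fatty acids are burnt, had the largest fall from T1 to T3. Its T2 over T1 ratios were -1.71 and -0.73 in Wagyu x Hereford and -1.78 and -2.55 in Piedmontese x Hereford arrays, all below 0. Its T3 over T2 ratios were -1.97 and 0.42 in Wagyu x Hereford and -0.93 and 0.82 in Piedmontese x Hereford arrays, so that the replicates of each cross disagreed in sign. The fitted T3 over T1 change was -2.11 ± 0.47 (limma adjusted p = 0.043), and the call was kept in 4 of the 20 fits without 1 array. KLHL40, a sarcomere protein, fell by 1.60, the locus named LOC511516 by 1.37 and ENO1 by 1.01, while the secreted glycoprotein CREG1 and argininosuccinate synthase (ASS1) rose by 0.84 and 0.58. The calls of KLHL40, CREG1 and ASS1 were kept in 16, 6 and 2 of the 20 fits without 1 array. Those of PDK4, KLHL40, LOC511516, CREG1 and ASS1 were lost with the 8 time arrays alone, where 0 features were called for T3 over T1.

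In Wagyu x Hereford muscle 577 features were DE from T1 to T2 (3.34%), with 34 named genes higher (3.49%) and 18 lower (1.85%), 5.34% in all. Between T2 and T3 1668 were DE (9.67%), with 42 named genes higher (4.32%) and 78 lower (8.02%), 12.3% in all. The first count was 98 without the first Wagyu x Hereford T2 over T1 array, 291 without the second Piedmontese x Hereford T2 over T1 array, and 339 and 347 without the second cross array at T1 or the first at T2. The second was 392 without the second Wagyu x Hereford T3 over T2 array, and 1108 and 997 without the first and the second Piedmontese x Hereford T3 over T2 array.

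SCD, FABP4 and ADIPOQ, genes of lipid metabolism, peaked at T2 in this cross. Stearoyl-CoA desaturase (SCD), which makes oleic acid from stearic acid, had ratios of 1.98 and 2.15 for T2 over T1 and -2.34 and -2.20 for T3 over T2 in Wagyu x Hereford arrays. In Piedmontese x Hereford arrays the same ratios were -0.65 and -0.06 and then -0.27 and 0.23. The crosses did not overlap in either step. The fitted change in Wagyu x Hereford muscle was 1.91 ± 0.19 for T2 over T1 (3.75-fold, limma adjusted p = 3.8e-05) and -2.33 ± 0.19 for T3 over T2 (0.199-fold, adjusted p = 1.6e-06). In Piedmontese x Hereford muscle it was -0.20 ± 0.19 and 0.04 ± 0.19 (adjusted p = 0.6 and 0.95). The difference between the crosses was 2.10 ± 0.18 for T2 over T1 and -2.36 ± 0.18 for T3 over T2 (adjusted p = 1.1e-05 and 2.4e-06), and it was called in every alternative and without any 1 array.

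Fatty acid binding protein 4 (FABP4, 76 elements), which carries fatty acids in fat cells, had the same course. Its ratios were 1.18 and 1.05 and then -1.29 and -0.59 on Wagyu x Hereford arrays, against 0.07 and -0.07 and then -0.05 and -0.15 on Piedmontese x Hereford arrays. For T2 over T1 it rose by 1.12 ± 0.15 in Wagyu x Hereford muscle (2.17-fold, limma adjusted p = 0.00034), with 52 of 76 elements DE higher and none lower, and the difference from Piedmontese x Hereford muscle was 1.13 ± 0.14 (adjusted p = 0.00019). For T3 over T2 it fell by 0.89 and the difference was -0.73 ± 0.14 (adjusted p = 0.018). Adiponectin (ADIPOQ, 22 elements), a hormone secreted by fat cells, had 0.61 and 1.16 and then -1.40 and -0.33 on Wagyu x Hereford arrays, against -0.13 and -0.29 and then 0.29 and 0.33 on Piedmontese x Hereford arrays. It rose by 0.96 ± 0.21 from T1 to T2 in Wagyu x Hereford muscle (adjusted p = 0.019). The difference between crosses was 1.25 ± 0.20 for T2 over T1 (adjusted p = 0.0023) and -0.81 for T3 over T2, which was not called (adjusted p = 0.087).

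The other adipocyte markers were not called from T1 to T2 in this cross. Of 23 adipocyte genes measured, FABP4 and ADIPOQ alone rose from T1 to T2 in Wagyu x Hereford muscle, where 3.49% of all named genes were called higher. The count of 2 was 1 without the first Wagyu x Hereford T2 over T1 array. The list median was -0.02 and -0.00 on the 2 Wagyu x Hereford arrays, against -0.13 and -0.17 on the Piedmontese x Hereford arrays. In the second step, where 8.02% of all named genes were called lower in this cross, 4 fell, namely FABP4, ADIPOQ, ADIPOR2 (-0.83) and CAVIN1 (-0.70). The count of 4 was 2 without the second Wagyu x Hereford T3 over T2 array. Of the defining markers, the lipid droplet coat protein perilipin (PLIN1) had 0.24 and 0.02, leptin (LEP) -0.53 and 0.58 and the lipid droplet protein CIDEC -0.65 and 0.64 for T2 over T1 and T3 over T2 in Wagyu x Hereford muscle, none of them called. In Piedmontese x Hereford muscle CIDEC fell by 1.87 from T1 to T2 (limma adjusted p = 0.019), lost without any 1 of 3 time arrays of that step, and CEBPA and ANGPTL4 fell by 0.69 and 0.49, while hormone-sensitive lipase (LIPE) rose by 0.78. Of 15 genes of fatty acid and triglyceride synthesis, SCD and transketolase (TKT, 0.67) rose from T1 to T2 in Wagyu x Hereford muscle. SCD, TKT (-0.66) and the regulator SREBF1 (-0.42) fell from T2 to T3. The synthesis list had medians of -0.17 and 0.19 on the Wagyu x Hereford T2 over T1 arrays. Fatty acid synthase (FASN) had 0.32 and then -0.16 and was not called. The part of a changed share of fat cells in the course of SCD, FABP4 and ADIPOQ was not tested.

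FMOD and both chains of type I collagen also peaked at T2 in Wagyu x Hereford muscle, while the list of 23 other matrix genes had medians of -0.09 and -0.08 on the T2 over T1 arrays of this cross. FMOD had ratios of 1.42 and 1.91 and then -1.58 and -1.66 in Wagyu x Hereford arrays, against -0.46 and 0.48 and then -0.69 and -0.30 in Piedmontese x Hereford arrays. It rose by 1.45 ± 0.16 (2.73-fold) and then fell by 1.73 ± 0.16 in Wagyu x Hereford muscle (limma adjusted p = 0.00013 and 7.3e-06), and the differences between crosses were 1.21 and -1.35 (adjusted p = 0.00024 and 9.5e-05). On the self-hybridisation FMOD read 0.58. Both chains of type I collagen moved in opposite directions in the 2 crosses from T1 to T2. COL1A1 had 0.81 and 0.66 in Wagyu x Hereford and -1.14 and -0.49 in Piedmontese x Hereford arrays, and COL1A2 0.95 and 0.59 against -1.18 and -0.64. COL1A1 rose by 0.70 ± 0.16 in Wagyu x Hereford muscle and fell by 0.78 ± 0.16 in Piedmontese x Hereford muscle (adjusted p = 0.024 and 0.012). The difference was 1.48 ± 0.16 for COL1A1 and 1.47 ± 0.15 for COL1A2 (adjusted p = 2.9e-05 and 2.6e-05), with 64 of 68 COL1A1 elements DE in that direction. Both differences were called in all 20 fits without 1 array, but not with the 8 time arrays alone. The changes within a cross were less firm. Without the first Wagyu x Hereford T2 over T1 array, 0 of 7 collagens were called higher in that cross. Without the first Piedmontese x Hereford array of that step, 0 were called lower in Piedmontese x Hereford muscle. Between T2 and T3 both chains fell in both crosses, by 1.47 and 1.30 in Wagyu x Hereford and by 0.68 and 0.66 in Piedmontese x Hereford muscle. SPARC differed likewise from T1 to T2, with 0.14 and 0.01 in Wagyu x Hereford and -0.48 and -0.49 in Piedmontese x Hereford arrays (difference 0.59 ± 0.12, adjusted p = 0.016), as did FN1 (0.87) and MGP (0.84). COL3A1 differed by 0.48 ± 0.14, which was not called (adjusted p = 0.12).

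Other genes peaked at T2 in Wagyu x Hereford muscle. The scavenger receptor SCARF1 had 1.64 and 1.58 and then -1.46 and -0.83 on Wagyu x Hereford arrays, against -0.08 and 0.03 and then -0.04 and 0.08 on Piedmontese x Hereford arrays, with differences of 1.68 and -1.03 (limma adjusted p = 0.00015 and 0.02). VEGFB, a growth factor of the vascular endothelial family, rose by 1.41 in Wagyu x Hereford muscle from T1 to T2 and differed by 0.99 between crosses (adjusted p = 0.0048). EMP1, an epithelial membrane protein, differed by 1.19 and -1.04, and RPL14, a ribosomal protein, by 1.06 and -1.16 in the 2 steps, all called. For T3 over T2 the calls of the EMP1, RPL14 and SCARF1 differences were lost with the cross arrays averaged in dye-swapped pairs. Those of RPL14 and SCARF1 were also lost with the 8 time arrays alone. That of SCARF1 was also lost without centring and was kept in 17 of the 20 fits without 1 array. CNN1, the smooth muscle marker, rose by 0.83 and fell by 0.71 in Wagyu x Hereford muscle and differed by 0.63 from T1 to T2. On the self-hybridisation CNN1 read -2.06.

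**Figure D2:**
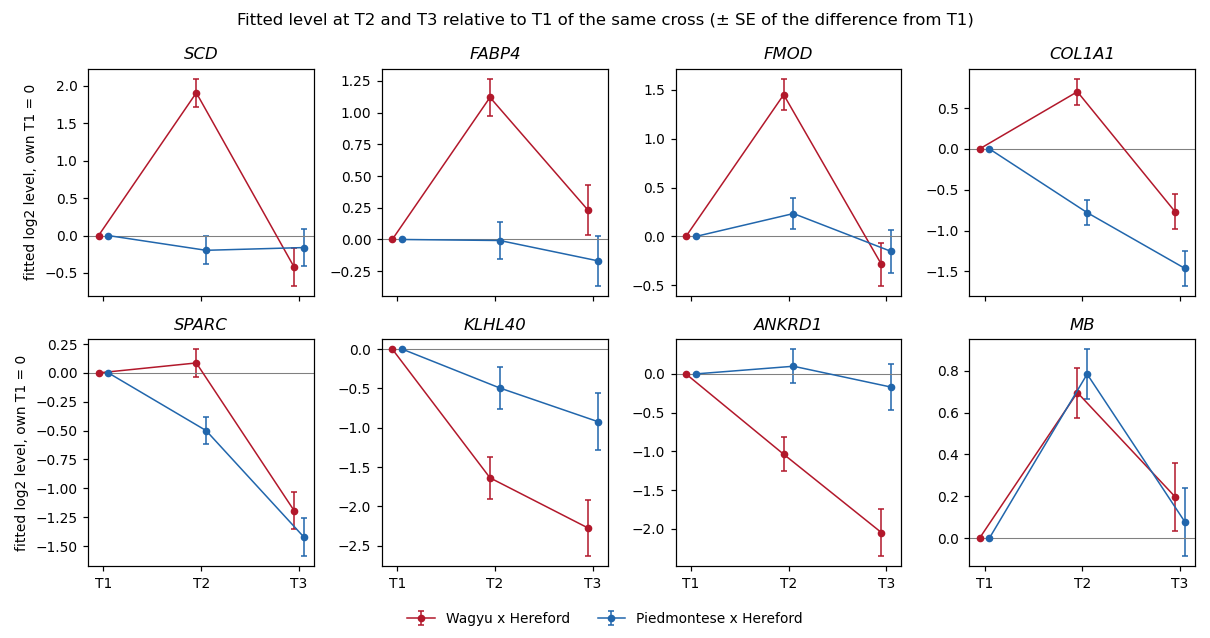
Fitted log2 level at T2 and T3 relative to T1 of the same cross, with the standard error of the difference from T1, for 8 genes in Wagyu x Hereford (red) and Piedmontese x Hereford (blue) muscle. SCD, FABP4 and FMOD rose by 1.91, 1.12 and 1.45 at T2 in Wagyu x Hereford muscle and were at -0.42, 0.23 and -0.29 at T3, while MB peaked at T2 in both crosses.

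Another group differed by a lower change in Wagyu x Hereford muscle, which for KLHL40 and ANKRD1 was a called fall. Of 41 sarcomere and contraction genes, 5 had a lower T2 over T1 change in Wagyu x Hereford than in Piedmontese x Hereford muscle and none a higher one, where 0.719% of all named genes were called lower, a count that ran from 1 to 5 when single arrays were left out. KLHL40, which stabilises thin filament proteins, had ratios of -2.20 and -1.11 in Wagyu x Hereford and -0.25 and -0.71 in Piedmontese x Hereford arrays. It fell by 1.64 ± 0.26 in Wagyu x Hereford muscle (limma adjusted p = 0.0024), and the difference was -1.14 ± 0.26 (adjusted p = 0.039), called in 10 of the 20 fits without 1 array. ANKRD1, a stretch-responsive ankyrin repeat protein of the sarcomere, had -1.34 and -0.66 in Wagyu x Hereford and 0.36 and -0.24 in Piedmontese x Hereford arrays (difference -1.14 ± 0.22, adjusted p = 0.011). It fell again from T2 to T3 in Wagyu x Hereford muscle, by 1.01, and from T1 to T3 it was lower by 2.05 ± 0.30 there, against -0.17 ± 0.30 in Piedmontese x Hereford muscle (difference -1.88 ± 0.25, adjusted p = 0.0058). The ubiquitin ligase TRIM54 differed by -1.06, the actin-binding repeat protein XIRP1 by -0.95 and TNNC1 by -0.55. Of these, TNNC1 had risen in Piedmontese x Hereford muscle, by 0.72 ± 0.12, and had 0.17 in Wagyu x Hereford muscle. The membrane protein TMEM182 differed by -0.81, with the call kept in 8 of the 20 fits without 1 array. With the 8 time arrays alone, and with the cross arrays averaged in dye-swapped pairs, the calls of KLHL40, ANKRD1, TRIM54, XIRP1 and TMEM182 were lost, and with the time arrays alone the difference was -0.23 for XIRP1 and -0.51 for TMEM182.

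The 12 arrays that set the crosses side by side gave the ratio between crosses of these genes at single times. SCD, COL1A1, KLHL40 and ANKRD1 were chosen by a fit that includes these arrays, so that their differences here follow in part from the choice. SCD in Wagyu x Hereford over Piedmontese x Hereford muscle averaged -0.58 at T1 (range -1.08 to -0.35), 1.39 at T2 (1.14 to 1.64) and -0.95 at T3 (-1.36 to -0.52), so that the 4 arrays of T2 stood wholly above those of T1 and T3. FABP4 averaged 0.01, 1.11 and 0.42 at T1, T2 and T3, and COL1A1 -0.26, 1.22 and 0.42. KLHL40 averaged 1.20, 0.11 and -0.09, and ANKRD1 1.45, 0.24 and -0.43, so that the excess in Wagyu x Hereford muscle was at T1. These arrays and the 8 time arrays enter one fit. Computed apart, the difference between crosses from the time arrays and that from the cross arrays correlated at 0.51 for T2 over T1 and 0.42 for T3 over T2 across 973 genes, which are not independent replicates. From T1 to T2 28 named genes were called for a difference (2.88%), 21 with the higher change in Wagyu x Hereford muscle (2.16%) and 7 with the lower (0.719%). The second step had 16 (1.64%), of which 2 were higher (0.206%) and 14 lower (1.44%). Over all features 195 (1.13%) and 144 (0.835%) were called, and the second count was 90 without the second cross array at T2. Cross arrays 1 and 2, and likewise 3 and 4, of a time correlated at 0.34 to 0.69 across named genes, while the other pairings ran from -0.40 to 0.25, so that dye-swapped pairs may hold the same RNA. With each such pair averaged, the counts of differences were 65 and 54.

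**Figure D3:**
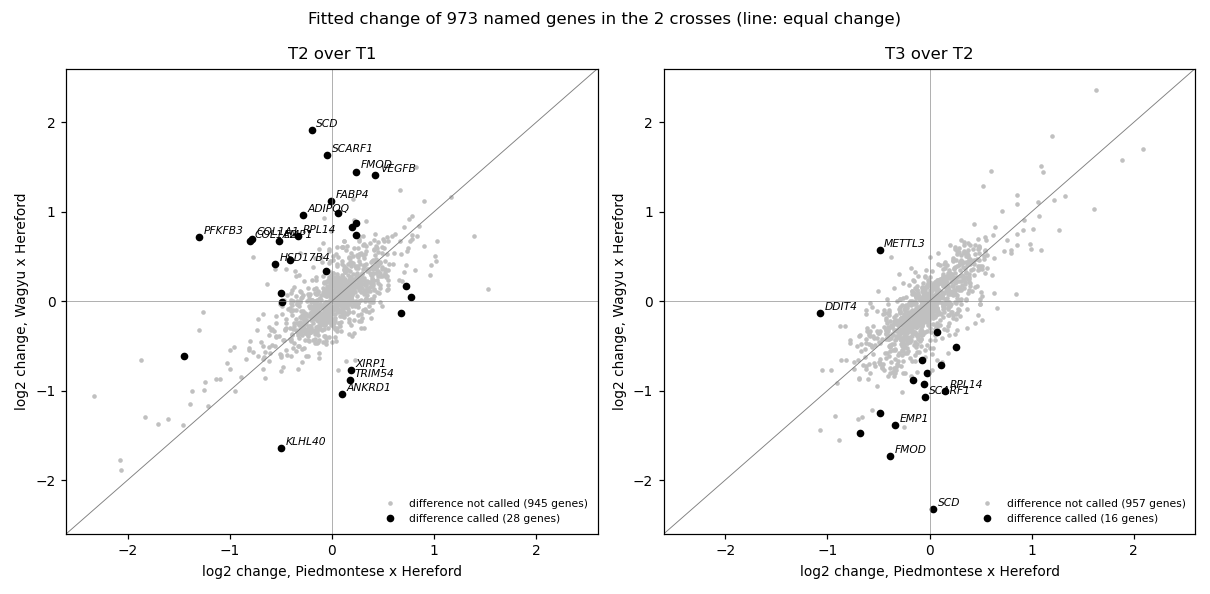
Fitted log2 change of 973 named genes in Wagyu x Hereford (vertical axis) against Piedmontese x Hereford muscle (horizontal axis) for each step, with the line of equal change. Black points are the 28 and 16 genes whose change differed between the crosses, with SCD at 1.91 against -0.20 in the first step and -2.33 against 0.04 in the second.

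In Piedmontese x Hereford muscle 929 features were DE from T1 to T2 (5.38%), with 31 named genes higher (3.19%) and 39 lower (4.01%), 7.19% in all. Between T2 and T3 649 were DE (3.76%), with 20 named genes higher (2.06%) and 31 lower (3.19%), 5.24% in all. The first count was 204 and 196 without the first and the second Piedmontese x Hereford array of its step and 345 without the first Wagyu x Hereford array. The second was 14 and 1 without the first and the second Piedmontese x Hereford array of its step, 262 without the second Wagyu x Hereford array and 1058 without the first. With the 8 time arrays alone, whose dyes were not balanced within a cross, the counts were 23 and 2. With the cross arrays averaged in dye-swapped pairs they were 180 and 0. Besides PDK4 (-2.33), WNT10B, EPC1, NFIX and CIDEC, which fell, glycogen-targeting phosphatase subunit PPP1R3C rose by 1.53 ± 0.42 from T1 to T2, with ratios of 2.43 and 0.97 in Piedmontese x Hereford arrays against -0.47 and 0.40 in Wagyu x Hereford arrays. The difference of PPP1R3C was -1.40 and was not called (limma adjusted p = 0.13). The slow calcium pump ATP2A2 rose by 1.01 and myozenin 3 (MYOZ3) by 0.97. The calls of PPP1R3C and ATP2A2 were lost without the dye term and with the 8 time arrays alone. That of PPP1R3C was also lost with the cross arrays averaged in dye-swapped pairs. It was kept in 11 of the 20 fits without 1 array. The call of MYOZ3 was lost with the 8 time arrays alone and with such pairs averaged.

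From T2 to T3 DDIT4, an inhibitor of mTORC1 signalling, fell in Piedmontese x Hereford muscle by 1.07 ± 0.18. Its ratios were -0.50 and -0.03 in Wagyu x Hereford and -0.93 and -0.94 in Piedmontese x Hereford arrays (difference 0.94 ± 0.17, limma adjusted p = 0.01). Both calls were lost with the 8 time arrays alone and with dye-swapped pairs averaged, and the fall within Piedmontese x Hereford muscle was also lost without either of its arrays of this step. The RNA methyltransferase METTL3 differed by 1.06 in the same direction, with 0.57 in Wagyu x Hereford and -0.49 in Piedmontese x Hereford muscle, neither called alone, and was kept in 7 of 11 alternatives. The bile acid and fatty acid ligase SLC27A5 rose by 1.61, lost in 10 of the 20 fits without 1 array.

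Genes called in each cross were in part the same. From T1 to T2, 274 features were called in both, 47.5% of those called in Wagyu x Hereford and 29.5% of those called in Piedmontese x Hereford muscle, 261 of them in one direction. Of 21 named genes called in both, 19 had one direction and COL1A1 and COL1A2 had opposite ones. The calls of COL1A1 and COL1A2 within a cross were lost without the first T2 over T1 array of that cross. In the second step, 430 features were called in both, 25.8% of the Wagyu x Hereford and 66.3% of the Piedmontese x Hereford calls, and all 430 had one direction. The changes of a cross are not independent of the other in this fit. From the time arrays alone, the changes of the 2 crosses correlated at 0.43 for T2 over T1 and 0.47 for T3 over T2 across 973 genes. Single arrays of one cross against the other correlated less across all features. They ran from -0.09 to 0.30 for T2 over T1 and from -0.03 to 0.36 for T3 over T2.

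Other gene groups held few called genes in the mean of both crosses. Of all named genes 4.21% were called higher and 3.8% lower from T1 to T2, and 5.45% and 7.09% from T2 to T3. Of 41 sarcomere genes 3 rose and 2 fell from T1 to T2 (median 0.22), and 3 rose and 8 fell from T2 to T3 (median -0.23), against 2 and 2 in that step without centring. Of 8 slow fibre genes TNNC1, ATP2A2 and MB rose from T1 to T2 and none fell (median 0.36). Of 19 growth regulators and myogenic factors, IGFBP6 rose by 0.48 and IGFBP3 fell by 0.39 from T1 to T2, and IGFBP6 and MYF5 fell by 0.77 and 0.27 from T2 to T3. IGF1 and IGF2 had -0.45 and 0.05 and then 0.22 and -0.24, none called. None of 6 genes of the citric acid cycle and none of 5 immune cell markers was called in either step. Of the markers of blood and nerve and of the mitochondrially encoded genes, 0 were measured under a gene name, so that blood or nerve RNA could not be followed.

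**Figure D4:**
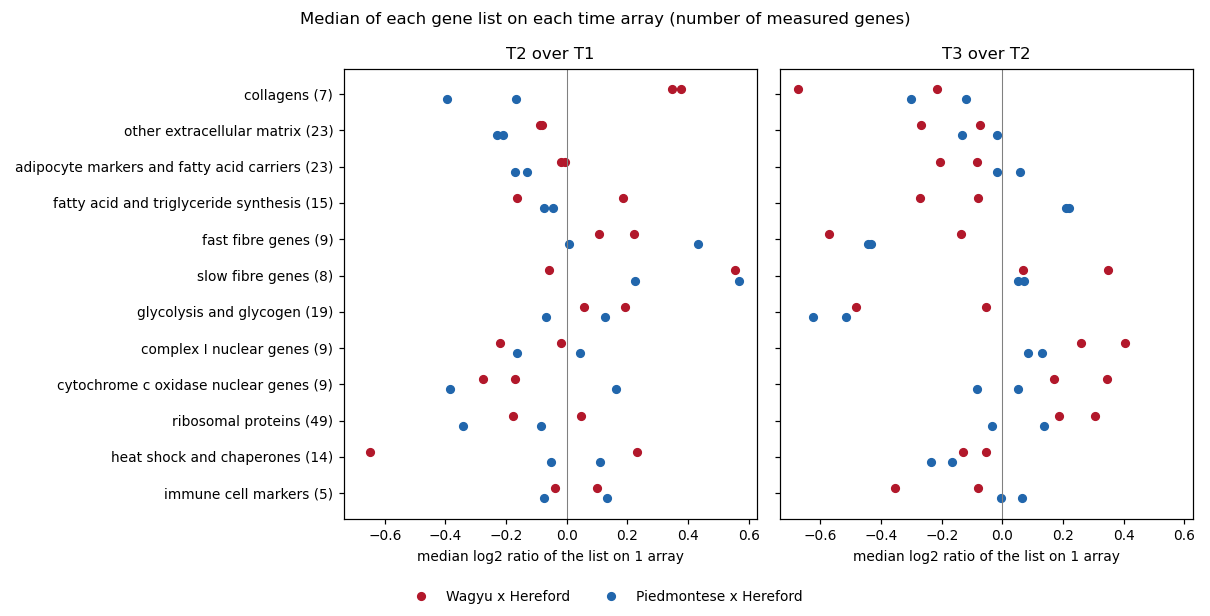
Median log2 ratio of each of 12 gene lists on each time array, for T2 over T1 (left) and T3 over T2 (right), in Wagyu x Hereford (red) and Piedmontese x Hereford (blue) muscle, with the number of measured genes in brackets. Collagens were at 0.38 and 0.35 on the Wagyu x Hereford arrays of T2 over T1 and at -0.39 and -0.17 on the Piedmontese x Hereford ones, and all 4 medians of glycolysis and of fast fibre genes were below 0 for T3 over T2.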

How the data were processed

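The authors deposited log2 ratios of two-colour cDNA arrays, likely of Cy5 over Cy3, with scanner intensities not used here. The steps behind the deposited log2 ratios of these arrays are not given in the sources used here, since the published methods describe fetal muscle. The ratios were not centred, with array medians of -0.316 to 0.012 on the 8 time arrays, and reached an upper limit of 16.61. Here values at that limit (31 to 75 elements per array) were dropped and the median of each array was subtracted. Of 21168 elements, 4490 named 1 gene and were combined into means for 976 genes, 188 carried several names and 16490 none. A feature was tested if 16 of the 20 arrays had a value. Arrays limit the precision by their number.

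Ratios were fitted with limma 3.58.1 in R 4.3.3, each group entering with the sign of its channel and the intercept taking up the dye, with 14 residual degrees of freedom and 3.23 from moderation. The script was tested on simulated data. Figures were drawn with matplotlib 3.10.9. In the table, 24 columns of other experiments were not used, and another table of the series was not used.

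Genes named are the 10 largest called rises and falls of one sign on all 4 arrays for each shared step, the 5 and 5 largest called for T3 over T1, for each cross and for the differences, and members of gene lists. Of other genes described, IGF1 and IGF2 are list members, and values of SCD, VEGFB and EMP1 in further comparisons stand beside those that the rule named. The members, lists and rule were chosen with earlier results of these data known. Alternatives were centring, treatment of limit values, filters, single elements, scaling, array weights, the dye term, the time arrays alone, a replicate block and leaving out each array. Averaging cross arrays in dye-swapped pairs was chosen after seeing the data.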

Additional observations from a re-analysis of the deposited data

Results flagged for a closer look

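The following genes changed over time to a different extent in the 2 crosses, by the test of the difference itself (limma adjusted p under 0.05), and are the 5 largest in each direction where so many passed. For T2 over T1, Wagyu x Hereford minus Piedmontese x Hereford, the difference was 2.10 for SCD, 2.03 for PFKFB3, 1.68 for SCARF1, 1.48 for COL1A1 and 1.47 for COL1A2 on the log2 scale. It was -1.14 for KLHL40, -1.14 for ANKRD1, -1.06 for TRIM54, -0.95 for XIRP1 and -0.81 for TMEM182. For T3 over T2 it was 1.06 for METTL3 and 0.94 for DDIT4, the 2 called in that direction among named genes, and -2.36 for SCD, -1.35 for FMOD, -1.16 for RPL14, -1.04 for EMP1 and -1.03 for SCARF1.

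PFKFB3, an enzyme that sets the level of an activator of glycolysis, has the least firm of these values. On the 4 cross arrays at T2 it read 0.37, 0.47, 2.65 and 2.84, and its adjusted p of 0.044 passed the threshold in 6 of the 20 fits without 1 array and in 4 of 11 alternatives.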

How the results depend on the processing

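Counts of DE features are given for T2 over T1, T3 over T2 and T3 over T1 shared by the crosses, then for the 2 steps in Wagyu x Hereford, the 2 steps in Piedmontese x Hereford and their 2 differences, which were 1183, 1847, 131, 577, 1668, 929, 649, 195 and 144. With the 8 time arrays alone, the first 8 counts were 201, 410, 0, 24, 438, 23, 2 and 57, and for T3 over T1 limma then gave 1146 features an unadjusted p under 0.05, against 1353 in the fit of 20 arrays. Without centring the shared counts were 741, 1127 and 71, T2 over T1 in Wagyu x Hereford 257, both Piedmontese x Hereford steps 515 and 301 and the second difference 87. The median of the first difference over all features was then -0.12, and the share of calls that were higher was 51.8% against 36.3% for Piedmontese x Hereford T2 over T1, 45.8% against 56.7% for T3 over T2, and 63.4% against 80.5% for the first difference. Without the dye term T3 over T1 gave 73, Wagyu x Hereford T2 over T1 312 and Piedmontese x Hereford T3 over T2 329. Scaling arrays to one spread gave 82 for T3 over T1, 15.9% higher against 26%, and 310 and 898 for the Wagyu x Hereford steps. Array weights gave 330 for Wagyu x Hereford T2 over T1 and 1515 for Piedmontese x Hereford T3 over T2. Single elements gave 437 for T3 over T1, 960 and 1114 for the same 2 steps, and 547 and 282 for the differences. With cross arrays averaged in dye-swapped pairs, T3 over T1 gave 51, the steps within a cross 115, 682, 180 and 0, and the differences 65 and 54. For Piedmontese x Hereford T3 over T2, limma then gave 2624 features an unadjusted p under 0.05, against 3226 in the fit of single arrays. Without 1 array the counts ran from 72 to 1317, 476 to 1918, 56 to 130, 98 to 852, 392 to 1787, 196 to 1028, 1 to 1058, 142 to 229 and 90 to 161. With the replicate number as a block they were 1371, 2246, 146, 699, 2034, 1069, 772, 186 and 148, but deviations of same-numbered arrays correlated at -0.31 to 0.45, so that the numbers do not pair the samples. Of 106 values of named genes, 31 kept their call with the 8 time arrays alone, 68 with pairs averaged and 96 to 106 in the other alternatives, and of 2120 values without 1 array 1892 did. No direction reversed. The causes were not tested.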

Other observations

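The genes that changed from T1 to T3 can be set beside the last step of fetal growth in the same series, birth over d 195 in 25 arrays of crossbred longissimus muscle, where 496 of 972 named genes (51%) were DE by the same kind of fit. Of the 17 named genes DE from T1 to T3, 13 were DE there too (76.5% of the 17 and 2.62% of the 496), 11 of them in the same direction, while the changes of all 972 genes correlated at 0.038. Of the 78 DE from T1 to T2, 38 were DE there (48.7%), 22 in the same direction and 16 in the opposite one. Of the 122 DE from T2 to T3, 63 were DE there (51.6%), 28 in the same direction and 35 in the opposite one. The changes of all 972 genes correlated at 0.14 and -0.11 for these steps. For T3 over T1 COL3A1 changed by -1.14, against -2.90 for birth over d 195. COL1A1 changed by -1.12 and -2.16, SPARC by -1.31 and -1.85 and TNNC1 by 0.82 and 0.89 in the same order. MYL2 had 0.73 and 0.16, the second not called. PDK4 (-2.11 and 2.71) and KLHL40 (-1.60 and 1.28) fell in one course and rose in the other. The sets of arrays share no labelled group, and how far their animals were related is not given.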
